A study of Mus musculus with 14 samples.

Results

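The hippocampi of MRL-IRAK4-KD mice were compared with those of C57BL/6 mice, to see which differences from the control strain were present when IRAK4 was kinase-dead. The 7 libraries of these 2 groups, out of 14 in the series, were chosen by their labels, and every Ensembl gene of the count table was considered. MRL-IRAK4-KD stands for B6.MRL-Faslpr/J mice (MRL), which carry the lpr mutation of Fas, crossed with IRAK4 kinase-dead mice, and 4 of them were sequenced. C57BL/6 stands for the control strain, and 3 of these mice were sequenced. All mice were 10 months old, all strains were on a C57BL/6 background, brains were perfused before dissection, and each mouse gave 1 library of hippocampal RNA. The C57BL/6 mice were purchased from a vendor, while the other strains came from another laboratory, so that genotype and source cannot be told apart. The 4 MRL and 3 IRAK4-KD libraries served for values side by side, and both of these comparisons use the same 3 C57BL/6 libraries.

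IRAK4 is the kinase that joins MyD88 under Toll-like receptors and the interleukin-1 receptor family and passes their signal on to NF-κB and to interferon regulatory factors. The lpr mutation disrupts Fas, the death receptor that limits activated lymphocytes, and mice that carry it make autoantibodies and develop a lupus-like disease. In the brain such disease has been studied as neuropsychiatric lupus, and the hippocampus, a centre of memory, is one of the regions examined.

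Both mutated genes were read first. Irak4 (ENSMUSG00000059883.16, chromosome 15) had 2.05, 2.21, 2.24 and 1.54 CPM (a gene's counts scaled to a common library size, after TMM normalization) in MRL-IRAK4-KD replicates 1 to 4 and 2.36, 1.81 and 2.31 CPM in C57BL/6 replicates 1 to 3. These ranges overlap, and the log2 fold change was -0.10 ± 0.18 (SE; edgeR's quasi-likelihood test, adjusted p = 0.864). Gene counts therefore give no check of the kinase-dead label. The protein-coding transcript Fas-201 had 0 counts in all 4 MRL-IRAK4-KD libraries and 584, 345 and 440 counts in C57BL/6. Fas-204, which spans nearly the same bases and is annotated as a target of nonsense-mediated decay, had 268 to 473 counts in MRL-IRAK4-KD and at most 7 in C57BL/6. Over the whole gene, Fas did not pass the test (log2 fold change -0.45 ± 0.26, adjusted p = 0.559). The library labelled IRAK4-KD replicate 3 had 0 counts of Fas-201 and 514 of Fas-204, the pattern of the lpr mice, which goes against its label, and it enters the fit through the shared spread (30 genes were called without it, against 37 with it).

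Total counts ranged from 322381018 to 498351982 in MRL-IRAK4-KD and from 279941472 to 401326171 in C57BL/6 libraries. MRL-IRAK4-KD replicate 4 stood apart from the other libraries, with an input RNA reading of 27.4 on the Qubit instrument against 41.2 to 43.7 in the other 3 of its group, 1.40 counts per read against 1.80 to 2.08 in the rest of the series, and the first principal component to itself (score 257). Counts of called genes are therefore also given without it, as are many of the list values that changed when it was left out. A list value given only with it may also have changed. All 10 hippocampal markers of the list, such as Prox1 and Wfs1, were detected in all 7 libraries, with a summed level of 1167 to 2259 CPM in MRL-IRAK4-KD and 1012 to 1272 CPM in C57BL/6.

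Of 38070 genes tested, 37 (0.0972%) differed between MRL-IRAK4-KD and C57BL/6 mice at an adjusted p below 0.05, 7 of them higher and 30 lower in MRL-IRAK4-KD. Without replicate 4, 43 genes (0.114%) did, 8 higher and 35 lower, and 34 of the 37 were among them. At an unadjusted p below 0.05, the threshold used by the study, 1647 genes (4.33%) were higher and 1634 (4.29%) lower, and without replicate 4 these were 1421 (3.76%) and 1930 (5.1%). Of the genes at an unadjusted p below 0.05, 50.2% were higher, and 33.7% when libraries were scaled by their size alone, a scaling that moved the median log2 fold change of all genes from -0.009 to -0.0663. The 2 groups did not overlap in 3314 genes (8.71%). In MRL against the same C57BL/6 libraries edgeR called 0 genes (0.0%), although 1202 (3.16%) were higher and 910 (2.39%) lower at an unadjusted p below 0.05, and DESeq2 called 203 and limma-voom 67. With MRL-IRAK4-KD replicate 4 left out of the shared fit, edgeR called 21 genes in MRL, 17 higher and 4 lower. In IRAK4-KD against C57BL/6, edgeR called 56 genes (0.147%).

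By position, 16 of the 37 genes lay within 1 interval of chromosome 4 that holds the Ccl21 genes, and 7 on unplaced scaffolds, among them 3 copies of Ccl21 genes. Another 3 lay within 5 Mb of Tnip1 on chromosome 11, 3 within 5 Mb of Fas on chromosome 19, 0 within 5 Mb of Irak4 on chromosome 15, and 8 elsewhere. All 16 genes of the chromosome 4 interval and all 3 near Tnip1 were also called in IRAK4-KD against C57BL/6, and none of the 3 near Fas was. In all 37 genes the 2 groups did not overlap.

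**Figure D1:**
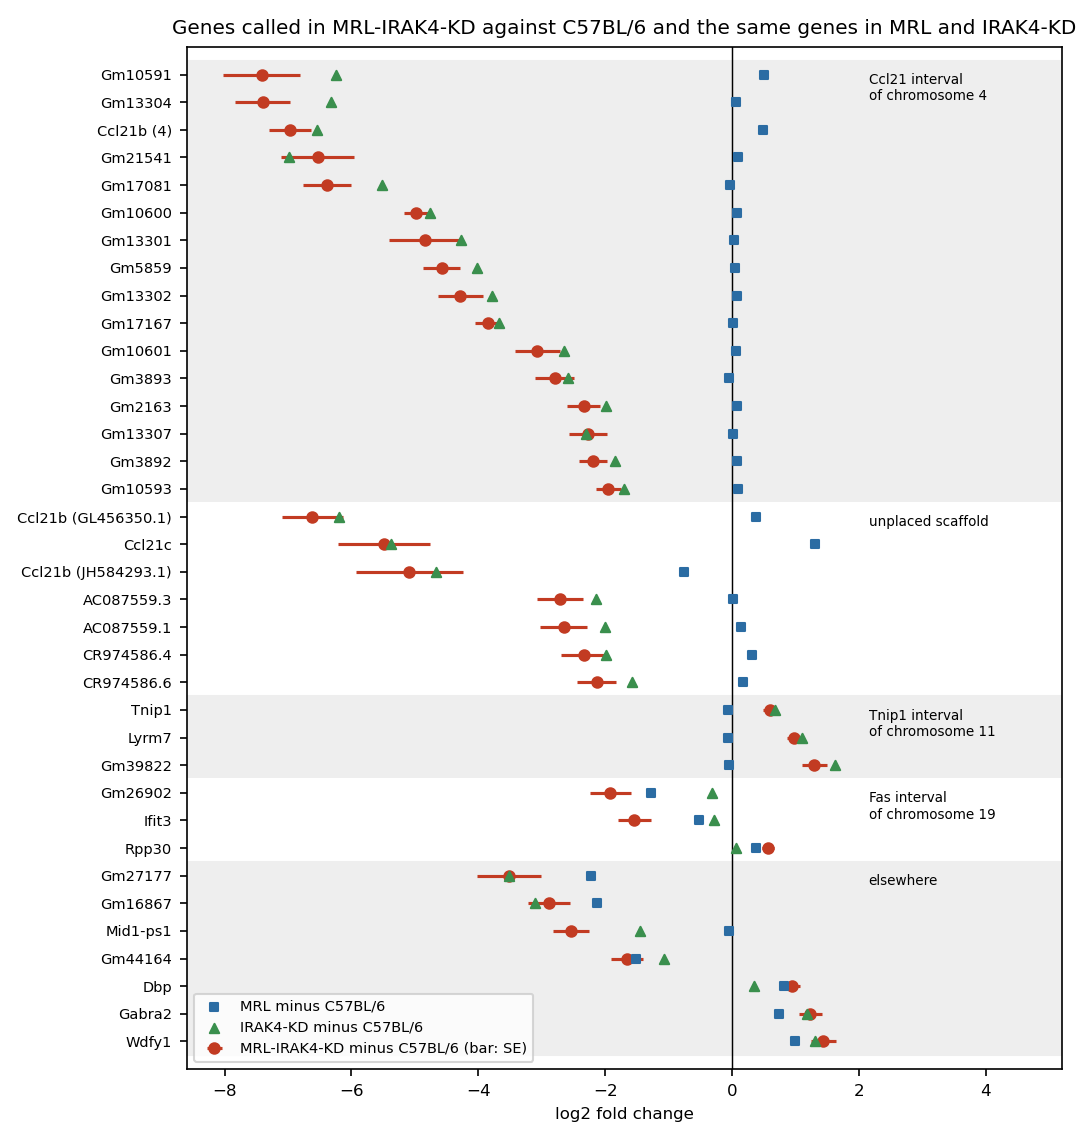
Log2 fold changes (x axis) of the genes called in MRL-IRAK4-KD against C57BL/6 (circles, bars are SE), with MRL (squares) and IRAK4-KD (triangles) against the same C57BL/6 libraries, grouped by position; Igkv4-55, at 0 in all MRL-IRAK4-KD libraries, is left out. On chromosome 4 the circles and triangles lie between -7.42 and -1.70 and the squares between -0.04 and 0.50.

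The chromosome 4 interval is a duplicated region that holds several near-identical copies of Ccl21, the chemokine that draws lymphocytes and dendritic cells bearing CCR7 into lymphoid tissue. The bases before the start of 4 of its copies are shown because they let a reader see how alike the copies are. They come from RefSeq (GRCm38.p6) and are written 5′ to 3′, with the 2 positions at which they differ in capitals.
Ccl21a, chr4:42774070-42774129, minus strand: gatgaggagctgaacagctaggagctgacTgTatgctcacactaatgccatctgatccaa
Ccl21d (Gm21541), chr4:41903474-41903533, plus strand: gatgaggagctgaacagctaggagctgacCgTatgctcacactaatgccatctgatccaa
Gm13304, chr4:42114648-42114707, plus strand: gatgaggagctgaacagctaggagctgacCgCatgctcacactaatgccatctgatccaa
Gm10591, chr4:42611984-42612043, plus strand: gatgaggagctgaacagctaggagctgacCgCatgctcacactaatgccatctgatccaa
Over the 249 bases that could be aligned before the start, Ccl21d differed from Ccl21a at 1 position, and Gm13304 and Gm10591 at 2 each.

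All 16 called genes of the interval were lower in MRL-IRAK4-KD mice, with log2 fold changes from -7.42 to -1.95, and they lie between 41809083 and 42612860 (mm10). Gm10600 had the smallest p, with 0.208, 0.256, 0.198 and 0.238 CPM in MRL-IRAK4-KD replicates 1 to 4 and 7.62, 5.97 and 7.65 CPM in C57BL/6 (log2 fold change -4.98 ± 0.19, adjusted p = 1.27e-08). Ccl21b on chromosome 4 had 0.0103, 0.0140, 0.0115 and 0.0225 CPM against 1.72, 1.92 and 1.79 CPM (log2 fold change -6.97 ± 0.33, adjusted p = 1.58e-07). For both genes every C57BL/6 library was thus many times above every MRL-IRAK4-KD library. Ccl21b had 5 to 7 counts in the MRL-IRAK4-KD libraries, near the limit of detection, while Gm10600 had 74 to 101 counts. Gm17167, a processed transcript, had 0.456, 0.556, 0.471 and 0.689 CPM against 9.73, 6.45 and 7.34 CPM (log2 fold change -3.85 ± 0.20). Gm13304 had 0.0144, 0.00842, 0.0207 and 0.0354 CPM against 2.99, 3.01 and 3.94 CPM (log2 fold change -7.40 ± 0.43). Gm17081, a pseudogene, had 0.00322 to 0.0161 CPM against 0.891 to 1.09 CPM (log2 fold change -6.38 ± 0.38). Gm13304, with 3 to 11 counts in the MRL-IRAK4-KD libraries, and Gm17081, with 1 to 7, were also near the limit of detection there. In MRL mice the same 5 genes had log2 fold changes of 0.08, 0.48, 0.02, 0.06 and -0.04 against C57BL/6, in the order named, and in IRAK4-KD mice -4.76, -6.55, -3.68, -6.33 and -5.52.

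Ccl21a itself (chromosome 4, 42772860), read after its values were seen, had 0.0371 to 0.0590 CPM in MRL-IRAK4-KD and 0.257, 0.320 and 0.632 CPM in C57BL/6, and did not pass the test over all genes (log2 fold change -3.12, unadjusted p = 0.000696, adjusted p = 0.399). A second Ccl21a entry, on scaffold JH584294.1, had 0.0168 to 0.0495 CPM against 0.0383 to 0.0893 CPM, with overlap (log2 fold change -0.70, adjusted p = 0.735). On scaffold GL456350.1, a further copy of Ccl21b fell by 6.62 ± 0.48 and Ccl21c fell by 5.49 ± 0.72 on the log2 scale. How reads that fit more than 1 of these near-identical copies were counted is not stated, so that the value of any single copy is uncertain. Without replicate 4, all 16 genes of the interval and all 7 on the scaffolds were still called. Of the other chemokines, Cxcl14, named after its values were seen, was the only one at an unadjusted p below 0.05, with 70.0 to 95.4 CPM against 58.4 to 65.8 CPM (log2 fold change 0.37, adjusted p = 0.552). Of 41 tested rows of the chemokine ligand list, 1 was higher and 6 lower at that threshold, and all 6 lower ones are Ccl21 genes. Among all genes 4.33% were higher and 4.29% lower.

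**Figure D2:**
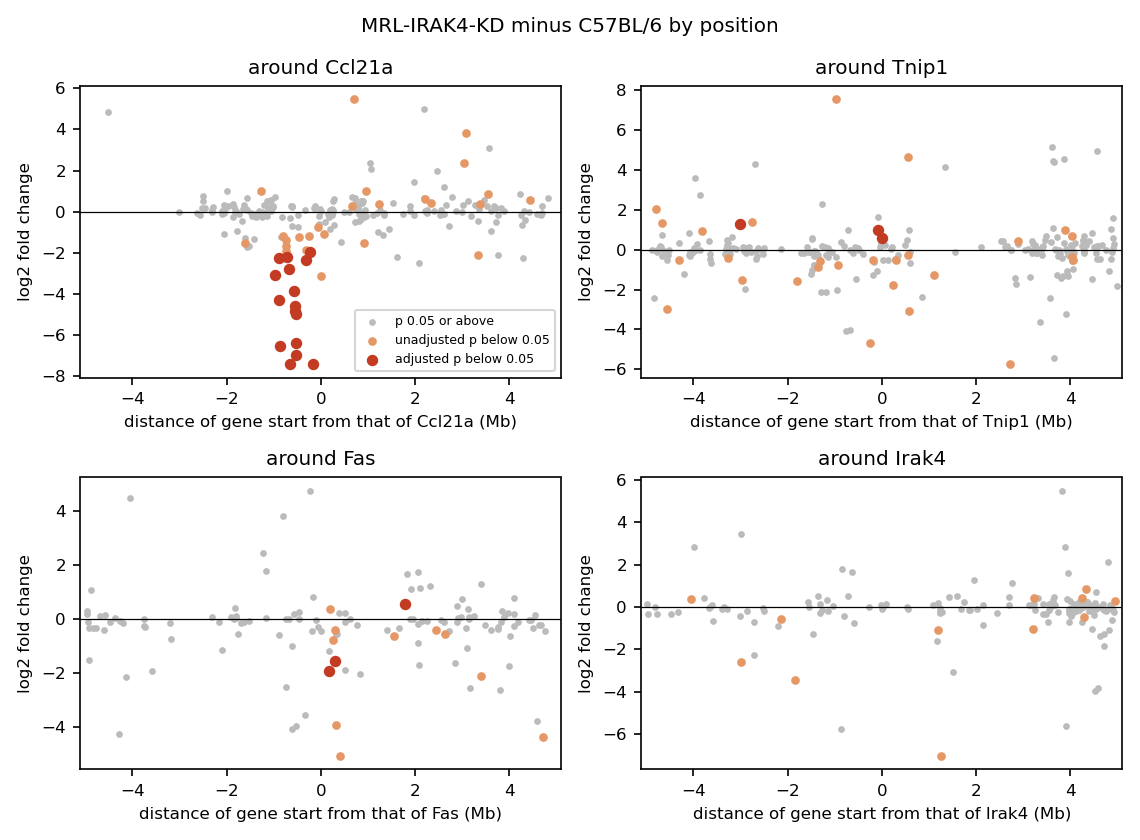
Log2 fold change of every tested gene of MRL-IRAK4-KD minus C57BL/6 (y axis) against the distance of its start from that of Ccl21a, Tnip1, Fas or Irak4 (x axis, Mb). Called genes form a cluster of 16 below 0 on the left of Ccl21a, while 3 are seen near Tnip1, 3 near Fas and 0 near Irak4.

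On chromosome 11, 3 genes were higher in MRL-IRAK4-KD mice. Lyrm7, which encodes an assembly factor of mitochondrial complex III, had 23.9, 29.9, 31.3 and 26.2 CPM in MRL-IRAK4-KD replicates 1 to 4 and 14.02, 14.4 and 14.2 CPM in C57BL/6 (log2 fold change 0.97 ± 0.11, adjusted p = 0.000868). Tnip1, which encodes an A20-binding protein that restrains NF-κB and starts 0.084 Mb from Lyrm7, had 24.7, 31.2, 30.9 and 27.4 CPM against 17.2, 20.1 and 19.6 CPM (log2 fold change 0.59 ± 0.10, adjusted p = 0.0464). In both genes all 4 MRL-IRAK4-KD libraries lay above all 3 C57BL/6 libraries, and the 4 MRL libraries lay at the C57BL/6 level, between 12.9 and 14.7 CPM for Lyrm7 and between 17.6 and 18.7 CPM for Tnip1. The lincRNA Gm39822, 3.01 Mb from Tnip1, had 4.93 to 7.56 CPM against 2.103 to 2.83 CPM (log2 fold change 1.29 ± 0.20, adjusted p = 0.0166). In IRAK4-KD mice the log2 fold changes of Lyrm7, Tnip1 and Gm39822 were 1.11, 0.67 and 1.63. Tnip1 lost its call in 10 of 17 alternative settings, Gm39822 in 6 and Lyrm7 in 1. Of 247 tested genes of this interval, 12 were higher and 18 lower at an unadjusted p below 0.05, or 12.1% of them against 8.51% of the genes outside the intervals and scaffolds. The interval was centred on a gene called in these same data, so its share is no test of the region. Within 5 Mb of Fas the share was 9.63%, and within 5 Mb of Irak4 it was 7.59%.

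On chromosome 19, near Fas, Ifit3 and Gm26902 fell and Rpp30 rose. Ifit3 belongs to a cluster of interferon-induced genes whose proteins bind foreign RNA, and starts 0.293 Mb from Fas. It had 2.70, 3.50, 3.56 and 2.72 CPM in MRL-IRAK4-KD replicates 1 to 4 and 12.8, 8.43 and 5.98 CPM in C57BL/6 (log2 fold change -1.54 ± 0.25, adjusted p = 0.0388). The groups did not overlap, but the range within C57BL/6 was wider than the gap between the groups, and without replicate 4 the call was lost (log2 fold change -1.48, adjusted p = 0.0738), as it was in 9 of 17 alternative settings in all. In MRL mice Ifit3 had 4.64 to 9.12 CPM, between the other groups in part, with a log2 fold change of -0.53 against C57BL/6.

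The neighbours of Ifit3 were read as members of the interferon list or after the values were seen. Ifit2 had 3.78, 5.44, 5.203 and 2.61 CPM against 8.31, 7.80 and 5.92 CPM (log2 fold change -0.79, unadjusted p = 0.00716, adjusted p = 0.552), with no overlap. Ifit3b had 2.65 to 4.30 CPM against 3.38 to 7.48 CPM (adjusted p = 0.552), and Ifit1 had 1.35 to 2.34 CPM against 1.84 to 3.53 CPM (adjusted p = 0.552), and both overlapped. The stretches before the starts of 3 of these genes are shown because they hold the letters of an interferon-stimulated response element, in capitals, searched as 2 copies of GAAA with any 2 bases between them, or of TTTC for the other strand (RefSeq, GRCm38.p6, 60 bases each).
Ifit3, chr19:34583365-34583424, plus strand: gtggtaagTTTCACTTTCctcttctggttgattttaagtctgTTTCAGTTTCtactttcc
Ifit3b, chr19:34607761-34607820, plus strand: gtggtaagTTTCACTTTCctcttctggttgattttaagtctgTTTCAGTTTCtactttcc
Ifit1, chr19:34640769-34640828, plus strand: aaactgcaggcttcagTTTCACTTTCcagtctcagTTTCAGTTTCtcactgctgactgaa
Each holds 2 matches, and the printed stretches of Ifit3 and Ifit3b are identical. A match on either strand, with overlaps allowed, was found in 978 of 32851 RefSeq promoters (2.98%) within 250 bases before the start, and in neither entry of Ifit2, which says only that these letters are not in that window.

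Rpp30, which encodes a subunit of ribonuclease P and starts 1.79 Mb from Fas, had 13.1, 13.1, 13.5 and 13.9 CPM in MRL-IRAK4-KD and 8.81, 9.23 and 9.06 CPM in C57BL/6 (log2 fold change 0.57 ± 0.10, adjusted p = 0.0418). The spread within each group was small beside the gap. MRL libraries had 10.9 to 12.8 CPM and IRAK4-KD libraries 8.78 to 9.84 CPM. Gm26902, a noncoding gene 0.184 Mb from Fas, had 0.164 to 0.386 CPM against 0.939 to 1.499 CPM (log2 fold change -1.92 ± 0.32, adjusted p = 0.0427). Both calls were lost in several alternative settings (11 of 17 for Rpp30 and 9 of 17 for Gm26902).

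**Figure D3:**
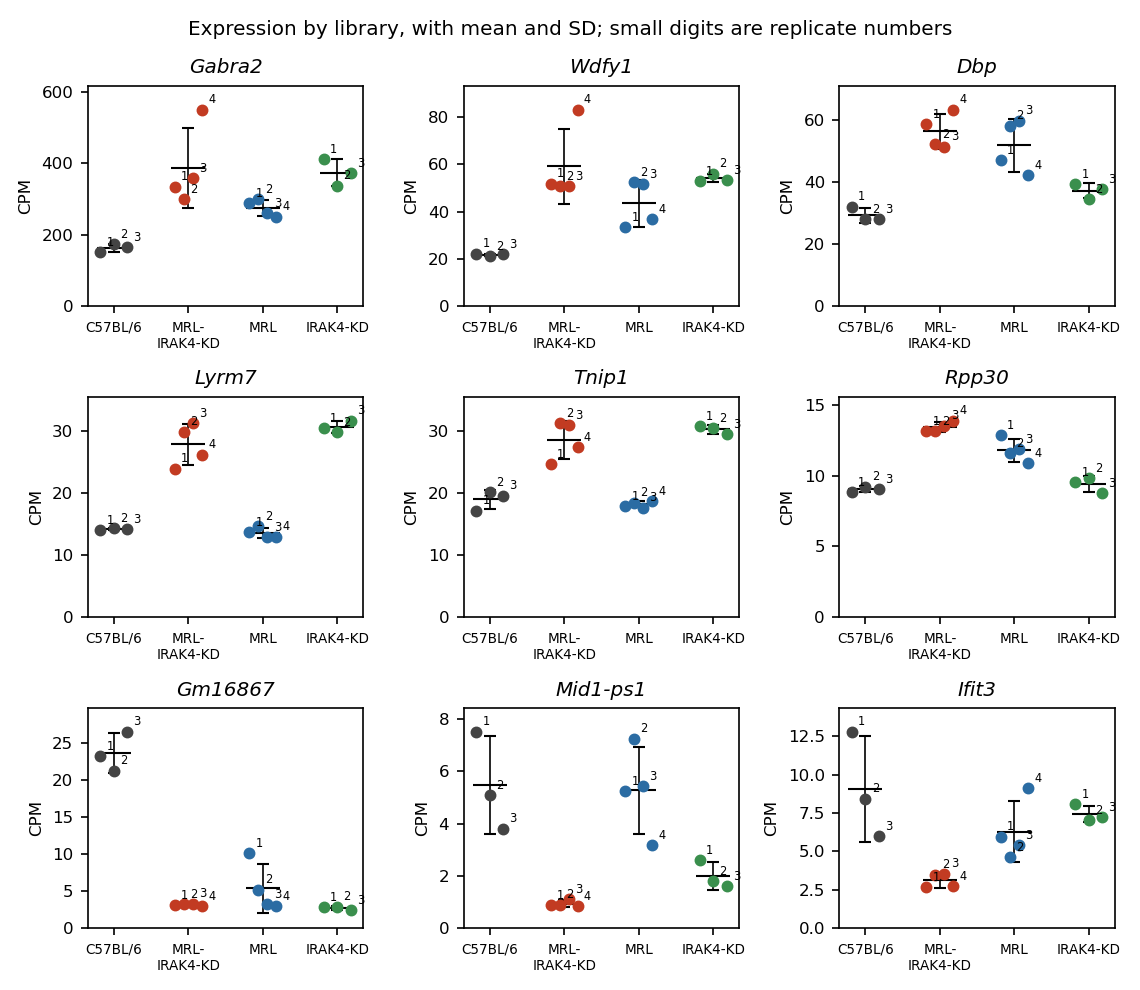
CPM (y axis, from 0) of 9 called genes in each library of the 4 groups (x axis); points are libraries, digits their replicate numbers, and bars the mean and SD. All 4 MRL-IRAK4-KD libraries lie outside the range of the 3 C57BL/6 libraries in each panel, with replicate 4 the highest for Gabra2 (551 CPM) and Wdfy1 (83.1 CPM).

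Among the genes elsewhere, Wdfy1, Gabra2 and Dbp rose. Wdfy1 (chromosome 1), which encodes an endosomal adaptor of Toll-like receptor signalling, had 51.8, 50.7, 50.7 and 83.1 CPM in MRL-IRAK4-KD replicates 1 to 4 and 22.3, 21.3 and 21.9 CPM in C57BL/6 (log2 fold change 1.44 ± 0.20, adjusted p = 0.00741). Gabra2 (chromosome 5), the α2 subunit of the GABA-A receptor, had 335, 301, 359 and 551 CPM against 153, 174 and 166 CPM (log2 fold change 1.23 ± 0.18, adjusted p = 0.00974). In both genes replicate 4 was the highest of its group, and without it the log2 fold changes were 1.23 (adjusted p = 0.000728) and 1.02 (adjusted p = 0.000127). All MRL libraries also lay above C57BL/6, at 33.3 to 52.4 CPM for Wdfy1 and 251 to 301 CPM for Gabra2, although neither passed the test there (adjusted p = 0.348 and 0.549), and IRAK4-KD libraries had 53.0 to 56.1 and 338 to 412 CPM.

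Dbp (chromosome 7), a transcription factor under control of the circadian clock, had 58.5, 52.1, 51.3 and 63.2 CPM in MRL-IRAK4-KD and 32.1, 28.0 and 27.9 CPM in C57BL/6 (log2 fold change 0.94 ± 0.13, adjusted p = 0.00829). MRL libraries had 42.1 to 59.7 CPM and IRAK4-KD libraries 34.6 to 39.4 CPM. Of 17 genes of the circadian list, Dbp alone was at an unadjusted p below 0.05, and the time of day of the dissections is not given in the sources used here. The median log2 fold change of the list was -0.01, against -0.009 over all genes tested. Nr1d1, a repressor of the clock named after its values were seen, had 73.2 to 88.0 CPM against 62.2 to 69.6 CPM (unadjusted p = 0.0536), and without replicate 4 it and Dbp were at that threshold.

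The lower genes elsewhere are mostly gene models without an assigned function, and all but Mid1-ps1 fell outside the rule for named genes and were chosen after their values were seen. Gm16867 (chromosome 14) had 3.15, 3.30, 3.32 and 2.99 CPM in MRL-IRAK4-KD and 23.1, 21.2 and 26.5 CPM in C57BL/6 (log2 fold change -2.89 ± 0.33, adjusted p = 0.00111). MRL replicates 1 to 4 had 10.2, 5.21, 3.26 and 2.98 CPM, so that 2 of them lay at the MRL-IRAK4-KD level, and IRAK4-KD libraries had 2.47 to 2.93 CPM. Gm27177, also on chromosome 14 and annotated as antisense, had 1.10 to 1.85 CPM against 15.3 to 16.6 CPM, and without replicate 4 its adjusted p was 0.135. Entpd4b, a nucleotide phosphatase gene on the other strand that Gm27177 overlaps, had 33.2 to 34.2 CPM against 51.2 to 57.5 CPM (log2 fold change -0.72, adjusted p = 0.157). The strand setting of the counting is not stated, so reads of an antisense gene and of its partner cannot be told apart. Gm44164 (chromosome 6) had 0.526 to 0.623 CPM against 1.45 to 2.35 CPM (log2 fold change -1.66 ± 0.25), a call that was lost in 6 of 17 alternative settings.

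Mid1-ps1, a pseudogene of Mid1 that the annotation places on the Y chromosome, had 0.900, 0.907, 1.13 and 0.844 CPM in MRL-IRAK4-KD and 7.51, 5.08 and 3.81 CPM in C57BL/6 (log2 fold change -2.53 ± 0.29, adjusted p = 0.00111). Its MRL libraries had 3.18 to 7.24 CPM and its IRAK4-KD libraries 1.60 to 2.62 CPM. Mid1, a ubiquitin ligase gene that spans the border of the pseudoautosomal region of the X chromosome and shares sequence with Mid1-ps1, had 6.08, 8.32, 7.63 and 14.6 CPM against 32.5, 19.3 and 19.5 CPM (log2 fold change -1.38, adjusted p = 0.317). Without replicate 4 it fell by 1.69 on the log2 scale (adjusted p = 0.0389). Igkv4-55, a variable segment of the immunoglobulin κ light chain, had 0 counts in all 4 MRL-IRAK4-KD libraries and 0.604, 1.87 and 0.182 CPM in C57BL/6. Against a floor of 3 counts over the group (0.00189 CPM) it was at least 467-fold lower, and at least 208-fold lower when C57BL/6 replicate 2 was left out. At 1.40 to 2.01 counts per read in this group, 3 counts stand for fewer reads, so these bounds may be too high. Its call was lost in 11 of 17 alternative settings, among them DESeq2. In 3 of the 4 MRL libraries and all 3 IRAK4-KD libraries it also had 0 counts.

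Nnt, the mitochondrial transhydrogenase gene in which C57BL/6J is known to carry a deletion, was read after its values were seen. Its reads were counted under 2 overlapping gene models, whose sum was 37.4, 30.02, 37.8 and 16.02 CPM in MRL-IRAK4-KD replicates 1 to 4 and 21.8, 20.9 and 20.5 CPM in C57BL/6. The IRAK4-KD libraries had 38.2, 39.3 and 38.7 CPM, and the MRL libraries 18.6 to 20.9 CPM. Replicates 1 to 3 of MRL-IRAK4-KD thus lay above all C57BL/6 libraries, and replicate 4 lay below. Gabra2 is also known to differ between substrains of C57BL/6, and the part of substrain in these differences was not tested.

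Leaving out replicate 4 added 9 genes to the calls, of which 3 lie in the Ccl21 interval and 1 on a scaffold, and removed Gm27177, Ifit3 and Igkv4-55. The others, all chosen after values were seen, are G530011O06Rik, Mid1, Gm36388, Gm3435 and Slc22a4. G530011O06Rik, a transcript of the X chromosome that overlaps Mid1, had 0.650, 0.848, 0.625 and 5.45 CPM in MRL-IRAK4-KD and 9.11, 5.07 and 4.41 CPM in C57BL/6. Its log2 fold change was -1.71 with all 4 libraries (adjusted p = 0.552) and -3.13 without replicate 4 (adjusted p = 0.000494). Slc22a4, a transporter gene within the Tnip1 interval, had 5.095, 4.28, 4.996 and 2.68 CPM against 7.33, 7.48 and 6.995 CPM (without replicate 4, log2 fold change -0.60, adjusted p = 0.0383). Gm3435 had 8.96 to 10.99 CPM against 5.75 to 6.59 CPM (without replicate 4, log2 fold change 0.64, adjusted p = 0.0383).

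The lists of immune genes were then read, beside the values of MRL mice against the same controls. Of 40 interferon-stimulated genes, 1 was higher and 3 lower in MRL-IRAK4-KD at an unadjusted p below 0.05, and the median log2 fold change was 0.09. Over all genes 4.33% were higher and 4.29% lower at that threshold. In MRL mice 25 were higher and 0 lower, with a median of 0.85, where 3.16% of all genes were higher. The 4 genes in MRL-IRAK4-KD were Ifit3 and Ifit2, above, Irf9, a subunit of the interferon-activated factor ISGF3, at 9.17 to 11.4 CPM against 11.3 to 14.1 CPM (log2 fold change -0.31), and Ifi27l2a, a small mitochondrial protein gene, at 0.643 to 1.76 CPM against 0.337 to 0.717 CPM (log2 fold change 0.91). Apart from Ifit3, all had an adjusted p of 0.552. Without replicate 4 the counts were again 1 and 3, but Ifi27l2a was no longer at the threshold (log2 fold change 0.51). Of 18 interferon-induced GTPases (the Gbp and Irg families), 0 passed in either direction, with a median of -0.11, and their summed level was 33.8 to 55.7 CPM in MRL-IRAK4-KD and 40.7 to 52.3 CPM in C57BL/6. The lowest sum was that of replicate 4, and without it the median was 0.09, with 12 of 18 positive against 6 with it. In MRL, 14 of the 18 were higher, with a median of 1.85 and sums of 73.5, 68.4, 62.4 and 474 CPM in replicates 1 to 4.

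Of 21 genes of MHC class I presentation and 11 of class II, 0 were at an unadjusted p below 0.05 in MRL-IRAK4-KD, with medians of 0.20 and 0.24. Without replicate 4 the class II median was -0.15, and 1 class I gene was higher (H2-M3, log2 fold change 0.61) and 1 lower (H2-T24, -0.61) at that threshold. Among all genes 4.33% were higher and 4.29% lower at that threshold, and 3.76% and 5.1% without replicate 4. In MRL, 12 genes of class I and 0 of class II were higher, where 3.16% of all genes were. Of 38 genes of Toll-like and interleukin-1 receptor signalling and 25 core JAK-STAT genes, 0 were at that threshold, with medians of -0.08 and -0.07, and in MRL 6 of each were higher. Without replicate 4 these medians turned to 0.07 and 0.02, and of the JAK-STAT genes 1 was higher (Pias3, log2 fold change 0.21) and 1 lower (Socs2, -0.29). Of 18 NF-κB genes, 1 (Tnip1) was. A p that misses the threshold does not show that the groups were alike. In the death receptor list of 14 genes, Faim2, which encodes an inhibitor of Fas-induced death in neurons, had 408 to 471 CPM against 336 to 383 CPM (log2 fold change 0.28, unadjusted p = 0.00862, adjusted p = 0.552), and Fadd, the adaptor of Fas, had 2.32 to 3.61 CPM against 2.19 to 2.40 CPM (log2 fold change 0.34). Without replicate 4, Faim2 was higher and Fas itself lower at that threshold (log2 fold change -0.57), and Fadd was not.

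No microglial or complement gene passed the test over all genes. Of 18 genes of homeostatic microglia, Selplg, Tmem119 and Ctss were higher at an unadjusted p below 0.05 and 0 were lower. At that threshold 4.33% of all genes were higher and 4.29% lower. Tmem119, a membrane protein that marks microglia, had 22.7, 20.9, 20.8 and 31.8 CPM against 19.1, 18.6 and 18.9 CPM (log2 fold change 0.35, adjusted p = 0.552). Selplg and the protease gene Ctss likewise showed no overlap, with log2 fold changes of 0.50 and 0.30. Without replicate 4 these 3 had log2 fold changes of 0.22 for Selplg, 0.19 for Tmem119 and 0.19 for Ctss, and in MRL mice of 0.45, 0.47 and 0.53. None of the 3 was then at an unadjusted p below 0.05. Of the other members 1 was higher and 1, Fcrls (log2 fold change -0.28), was lower. Without replicate 4, 3.76% of all genes were higher and 5.1% lower. In bulk RNA more cells of a type and more RNA per cell cannot be told apart. Of 18 genes of disease-associated microglia, Lgals3, Igf1 and Ctsd were higher, with log2 fold changes of 1.19, 0.34 and 0.38, and without replicate 4 of 0.56, 0.26 and 0.19, where of this list only Cd9 was at the threshold (0.29).

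Among 22 complement genes, Cd59a, C1qa and C1qb were higher and C4a was lower at an unadjusted p below 0.05. At that threshold 4.33% of all genes were higher and 4.29% lower. C1qa, a chain of the initiating complex of the classical pathway, had 45.9, 41.7, 41.5 and 90.5 CPM against 39.8, 35.5 and 37.8 CPM (log2 fold change 0.54, adjusted p = 0.552). C1qb had 44.3, 36.3, 38.9 and 119 CPM against 37.2, 34.1 and 36.8 CPM, and Cd59a, an inhibitor of the membrane attack complex, had 31.5 CPM in replicate 4 and 5.61 to 9.06 CPM in the other 3. In these 3 genes replicate 4 was far above the others of its group. Without it the log2 fold changes were 0.19 for C1qa and 0.31 for Cd59a, and 0 complement genes were higher and 3 were lower. Of all genes 3.76% were then higher and 5.1% lower. C4a had 3.61 to 4.18 CPM against 4.28 to 5.71 CPM, and C4a shares sequence with C4b.

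Several genes of myelin and oligodendrocytes were higher in MRL-IRAK4-KD before adjustment. Of 18, 8 were higher and 0 lower at an unadjusted p below 0.05, 16 had a positive log2 fold change, and in 8 every MRL-IRAK4-KD library lay above every C57BL/6 library. Over all genes 4.33% were higher at that threshold and 8.71% did not overlap in either direction. Without replicate 4, 7 were higher. Cldn11, a tight-junction protein of myelin, had 103, 110, 98.8 and 114 CPM against 82.5, 66.9 and 83.3 CPM (log2 fold change 0.46 ± 0.12, unadjusted p = 0.00257). Mag, a myelin-associated glycoprotein, had 125, 130, 116 and 154 CPM against 98.3, 78.6 and 96.3 CPM (log2 fold change 0.53, unadjusted p = 0.0137). Mog and Enpp6, the latter a marker of newly formed oligodendrocytes, had log2 fold changes of 0.54 and 0.69, also without overlap. None passed the test over all genes (adjusted p = 0.552 for each). The list median was 0.30 with and 0.32 without replicate 4, and 0.25 in MRL mice, where 4 members were higher at an unadjusted p below 0.05. In MRL mice 3.16% of all genes were higher at that threshold. Summed levels were 4904 to 6201 CPM in MRL-IRAK4-KD and 3575, 4452 and 4630 CPM in C57BL/6, of which replicate 2 was the lowest.

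**Figure D4:**
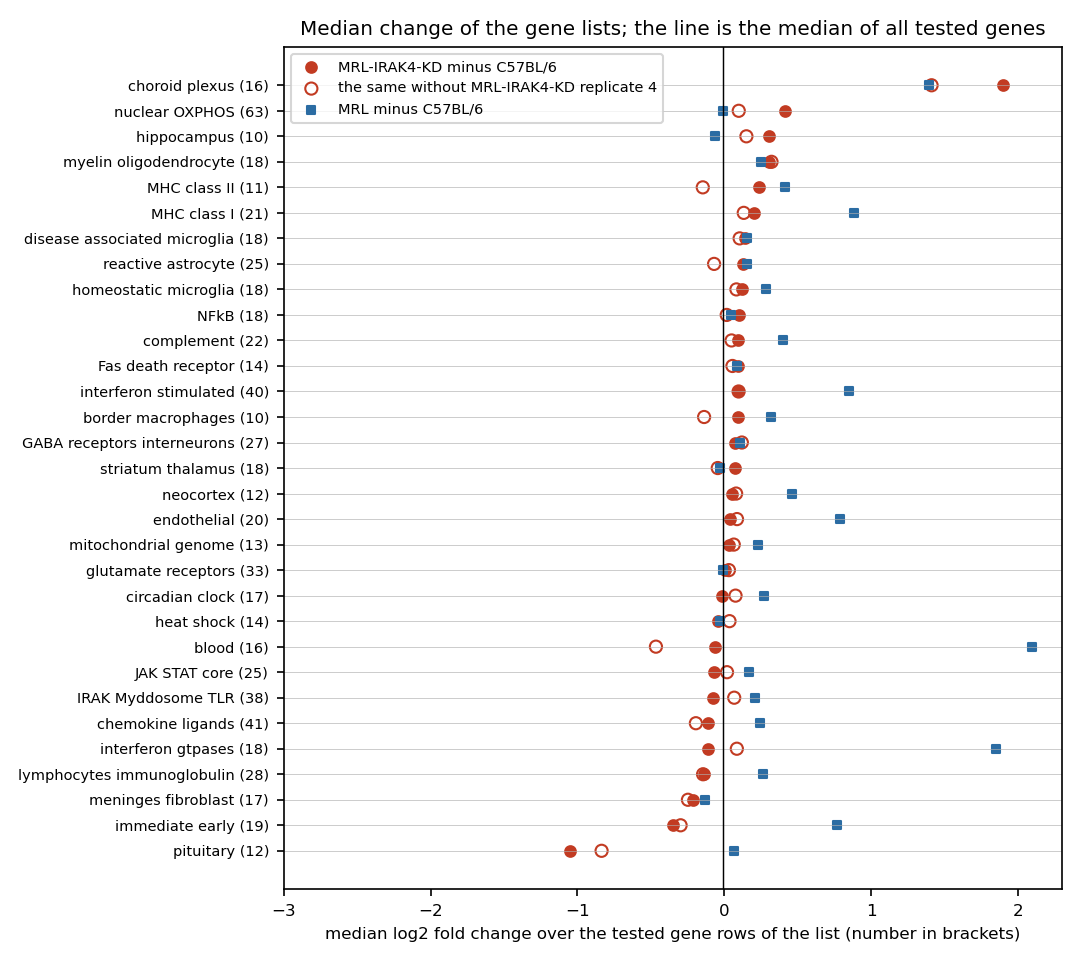
Median log2 fold change (x axis) of 31 gene lists in MRL-IRAK4-KD minus C57BL/6 (filled circles), the same without MRL-IRAK4-KD replicate 4 (open circles) and MRL minus C57BL/6 (squares). The interferon lists, MHC class I and blood are far to the right in MRL (0.85 to 2.09) and between -0.11 and 0.20 in MRL-IRAK4-KD, where blood is at -0.47 without replicate 4, and the choroid plexus is to the right in both.

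Of 27 genes of GABA receptors and interneurons, Gabra2, Pvalb and Cck were higher at an unadjusted p below 0.05, where 4.33% of all genes were. Without replicate 4 there were 8, where 3.76% of all genes were higher, and 0 were lower in either case. Pvalb, the calcium-binding protein of fast-spiking interneurons, had 29.9, 33.5, 28.3 and 56.95 CPM against 19.1, 21.8 and 28.9 CPM, with overlap (log2 fold change 0.68, adjusted p = 0.552). Cck, a neuropeptide of another interneuron class, had 174 to 189 CPM in replicates 1 to 3, 383 CPM in replicate 4 and 127 to 148 CPM in C57BL/6 (log2 fold change 0.78). Leaving out replicate 4 took the log2 fold changes to 0.40 for Pvalb and 0.42 for Cck. Of 33 glutamate receptor genes, Grin1, the obligatory subunit of the NMDA receptor, had 386 to 568 CPM against 305 to 345 CPM (log2 fold change 0.44), and Cnih2, an auxiliary AMPA receptor subunit, had 237 to 579 CPM against 189 to 266 CPM (log2 fold change 0.69). Without replicate 4 the log2 fold changes were 0.29 for Grin1 and 0.34 for Cnih2, and 2 glutamate receptor genes were higher and 1 lower. Of all genes 3.76% were then higher and 5.1% lower. Of 19 immediate early genes, which follow neuronal activity, Fos and Npas4 were lower and 0 were higher. Among all genes 4.29% were lower at an unadjusted p below 0.05, and 8.71% did not overlap in either direction. Fos had 4.78, 7.05, 8.36 and 2.99 CPM against 8.99, 21.8 and 16.8 CPM (log2 fold change -1.45, unadjusted p = 0.0308), and Npas4 had 8.29 to 11.4 CPM against 15.8 to 19.6 CPM (log2 fold change -0.78). Neither overlapped, and both had an adjusted p of 0.552, and without replicate 4 no gene of the list was at that threshold. The MRL libraries had 10.4 to 86.2 CPM of Fos.

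The choroid plexus list, which stands for the epithelium that makes cerebrospinal fluid, had the highest median of the 31 lists, at 1.895. All 16 members had a positive log2 fold change, 10 were higher at an unadjusted p below 0.05 and 0 passed the test over all genes, where 4.33% of all genes were higher at an unadjusted p below 0.05. The summed level was 2658, 972, 374 and 8668 CPM in MRL-IRAK4-KD replicates 1 to 4 and 301, 379 and 655 CPM in C57BL/6, so that the groups overlapped and replicate 4 was the highest. In MRL it was 258 to 2426 CPM, and in IRAK4-KD 340, 2032 and 356 CPM. None of the 16 markers was at 0 in any of the 7 libraries. Enpp2, which encodes autotaxin, had 709, 381, 192 and 659 CPM against 156, 169 and 187 CPM (log2 fold change 1.51, unadjusted p = 0.0168, adjusted p = 0.552), and Prlr, Folr1 and Otx2 had log2 fold changes of 2.44, 2.44 and 1.85, and without replicate 4 of 1.42, 1.70 and 1.09. Without replicate 4 the median was 1.41 and 0 members were at that threshold.

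**Figure D5:**
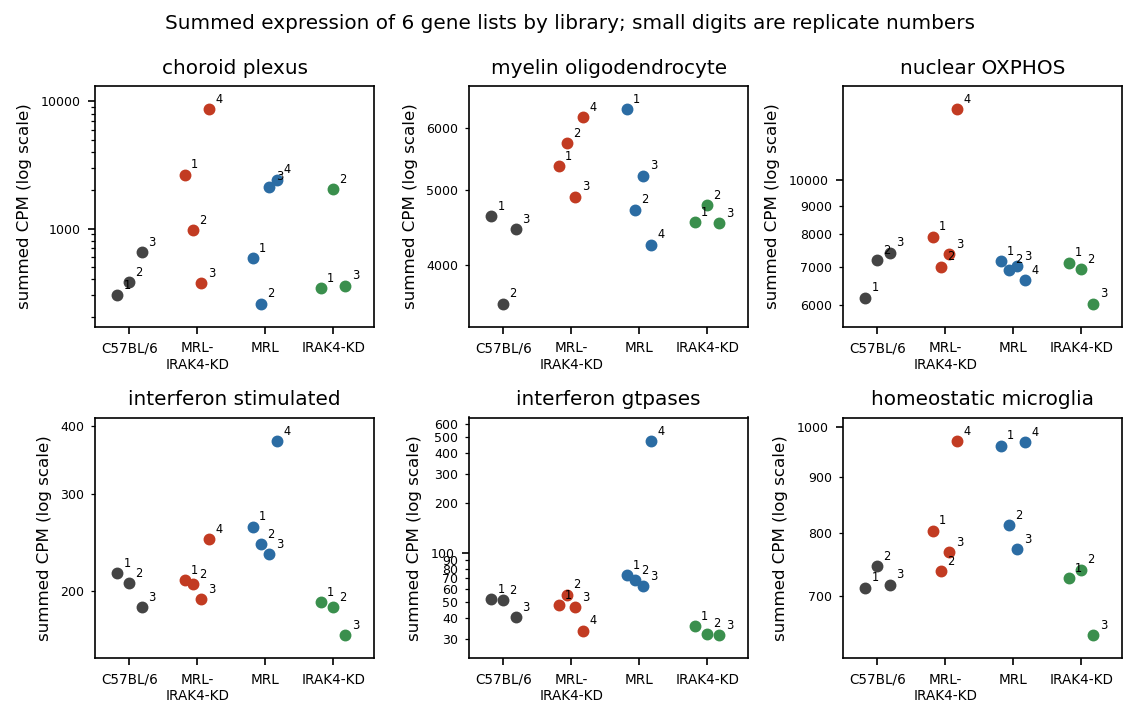
Summed CPM (y axis, log scale) of 6 gene lists in each library of the 4 groups (x axis), with replicate numbers beside the points. MRL-IRAK4-KD replicate 4 is the highest of all libraries for the choroid plexus (8668 CPM) and for nuclear-encoded respiratory chain genes (13350 CPM), while the myelin sums of MRL-IRAK4-KD lie above all 3 C57BL/6 libraries.

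Nuclear-encoded genes of oxidative phosphorylation were highest in replicate 4. All 63 had a positive log2 fold change, where 18120 of all 38070 genes did, and their median was 0.41. At an unadjusted p below 0.05, 12 were higher, where 4.33% of all genes were. Their summed level was 7926, 7010 and 7373 CPM in replicates 1 to 3, 13350 CPM in replicate 4 and 6181, 7198 and 7424 CPM in C57BL/6. Without replicate 4, the median was 0.10 and 4 genes were higher at the threshold, where 3.76% of all genes were. The log2 fold change was then still positive in 60 of the 63, where 17713 of all 37836 genes tested were positive. Cox8a had 199 to 244 CPM in replicates 1 to 3 and 545 CPM in replicate 4, against 158 to 187 CPM. Sdhb, Atp5c1 and Atp5j2 had log2 fold changes of 0.39, 0.23 and 0.74, and without replicate 4 of 0.18, 0.18 and 0.17. Of 13 genes of the mitochondrial genome, mt-Nd6 alone was at the threshold, at 3065 to 4818 CPM against 2263 to 3200 CPM (log2 fold change 0.42). Without replicate 4 its log2 fold change was 0.25, and 0 genes of that list were at the threshold.

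Other lists held few genes at an unadjusted p below 0.05. Among 28 genes of lymphocytes and immunoglobulins, 1 was higher and 3 were lower, where 4.33% of all genes were higher and 4.29% lower. Ighg1, a heavy chain of immunoglobulin G, had 0.184, 0.0646, 1.75 and 0.737 CPM against 0.0244, 0 and 0 CPM (unadjusted p = 0.000796, adjusted p = 0.400). Igkc, the κ light chain, had 0.211 to 1.82 CPM against 4.70, 9.93 and 1.33 CPM (log2 fold change -2.52), and Jchain and Ighg2b had log2 fold changes of -0.998 and -2.91. Without replicate 4, 1 gene of the list was higher and 2 were lower. These are low levels in which single libraries differ severalfold within a group. Of 20 endothelial genes, Slc2a1, the glucose transporter of the blood-brain barrier, had 46.1 to 67.9 CPM against 40.3 to 43.2 CPM (log2 fold change 0.42), and Mfsd2a, a lipid transporter, had a log2 fold change of 0.70. In MRL, 14 of the 20 were higher, where 3.16% of all genes were, with a median of 0.79 against 0.04 in MRL-IRAK4-KD. Without replicate 4, 2 endothelial genes were higher and 0 lower in MRL-IRAK4-KD, and the median was 0.09. Of all genes 3.76% were then higher and 5.1% lower. Of 25 genes of reactive astrocytes, Serpina3n alone was at the threshold (35.6 to 65.7 CPM against 28.6 to 39.5 CPM), of 18 of striatum and thalamus Ntng1 (log2 fold change -0.36), and of 12 of neocortex Otof (log2 fold change -1.13). Without replicate 4 these counts were 0, 2 and 0.

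None of the 16 genes of blood, 17 of meninges and fibroblasts, 12 of pituitary, 10 of border macrophages, 14 of the heat shock response or 10 of hippocampus was at that threshold, and without replicate 4 only 1 blood gene (Elane) and 1 heat shock gene (Chordc1) were, both lower. The summed blood level was 59.8, 56.3, 55.2 and 198 CPM in MRL-IRAK4-KD replicates 1 to 4, and 45.7 to 96.0 CPM in C57BL/6. That of the meninges was 559 to 1393 CPM against 491 to 1223 CPM, and that of the pituitary 92.9 to 174 CPM against 96.1 to 124 CPM, although the pituitary list had the lowest median of the 31 lists (-1.05) and 5 of its 12 genes were at 0 in at least 1 of the 7 libraries. The part of the choroid plexus, of the input RNA of replicate 4 and of the blood level in the results above was not tested.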

How the data were processed

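Poly(A) RNA of 14 hippocampi was sequenced, per the labels. The labels name a KAPA HyperPrep mRNA kit and the study's methods a SMART-seq low-input kit, and which was used is not settled here. The authors aligned reads with HISAT2 2.1.0 on mm10 and derived whole-number counts per gene with StringTie 2.1.0 (submitters' processing notes), deposited without normalization. Counts per read were 1.40 to 2.08. Strand and annotation are not given in the sources used here, and all 55536 Ensembl identifiers were found in GENCODE M21. Predicted tRNAs and spike-ins were left out.

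A single edgeR 4.0.16 model of the 4 groups (R 4.3.3, robust quasi-likelihood test, TMM) was run on the 38070 genes that reached 10 counts over all libraries, with Benjamini-Hochberg adjustment over them. The values per library are CPM on TMM sizes, and floors cover counting error only. Other settings tried were the size factors of DESeq2 (RLE), scaling by library size, DESeq2 1.42.0, limma-voom 3.58.1 with quality weights, no filter, filterByExpr, a fit of the 7 libraries, a replicate block, halved counts, and leaving out each of the 7 libraries or the library labelled IRAK4-KD replicate 3.

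Genes were named by this rule: Irak4 and Fas, up to 15 called genes per direction in order of p (groups not overlapping, mean CPM of at least 0.1), and up to 4 members of each of 31 lists in order of p, with an interval of over 10 called genes described by its 5 of lowest p. Of these list members the text gives mainly those at an unadjusted p below 0.05, and those named only for their values without replicate 4 were added after these were seen. The comparison, lists and rule were chosen with earlier results of these data known. In simulated counts for this comparison (36894 genes, 200 of them changed), edgeR found 65% of log2 changes of 1 and 93% of changes of 2, with 3.66% of calls false. The false share was 4.35% for limma-voom and 21.8% for DESeq2. The simulated counts were drawn from edgeR's own estimates of the spread, with no library set apart as MRL-IRAK4-KD replicate 4 was. Only genes with a mean above 1 CPM were changed, so the rates do not cover genes at lower levels. They do not rank the tools on the real data. Promoters are RefSeq's (GRCm38.p6), and plots were made in matplotlib 3.10.9 (Python 3.11.15).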

Additional observations from a re-analysis of the deposited data

Results flagged for a closer look

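In the group of 4 MRL-IRAK4-KD libraries, a single library lay far from the others in 12 of 79 named genes, and in all 12 it was replicate 4. Chance flags about 1 in 20 groups, but the genes were chosen partly by values that replicate 4 sets and were read in the same libraries, so that this rate is no expectation for their number. The genes, with their CPM in replicate 4, were Wdfy1 (83.1), Gm21541 (0.0580), Cd59a (31.5), C1qa (90.5), C1qb (119), Grin1 (568), Cck (383), mt-Nd6 (4818), Cox8a (545), Sdhb (148), Atp5j2 (261) and G530011O06Rik (5.45). The same library stood apart in its share of counts on tRNA predictions (0.188%) and in the Qubit concentration of its input RNA (27.4). The part of input RNA in these values was not tested.

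A test of whether the difference between kinase-dead and intact groups varied with the lpr label called 1 gene, the mitochondrial tRNA gene mt-Tg (log2 interaction 3.75, edgeR adjusted p = 0.00127). In MRL-IRAK4-KD against C57BL/6 it did not pass the test (10.9 ± 3.15 against 11.3 ± 1.61 CPM, SD, n = 4 and 3, log2 fold change -0.05, adjusted p = 0.970), and the IRAK4-KD libraries had 0.741 to 0.821 CPM. Among these, the library labelled replicate 3 had the Fas transcript pattern of the lpr mice. The C57BL/6 mice also came from a different source, so the interaction cannot be told apart from differences between sources.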

How the results depend on the processing

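The number of called genes, 37 in the report, was 180 with DESeq2, 81 with limma-voom and 13 when the 7 libraries were fitted alone, which leaves fewer samples to estimate the spread. Over libraries left out in turn it ranged from 23 to 43, and leaving out C57BL/6 replicate 1 moved it most (23 called genes). The 3281 genes at an unadjusted p below 0.05 became 1658 with the 7 libraries alone and 2009 with the replicate number as a block, and ranged from 1596 (without C57BL/6 replicate 1) to 4484 with libraries left out, with 2184 without C57BL/6 replicate 2. RLE, no filter, filterByExpr, library size only and halved counts gave 34 to 37 called genes. Of the 37, 22 were called with every single library left out and 12 under every setting tried. The share of higher genes among those at an unadjusted p was 50.2%, and 33.7% with library size only.

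Nothing in the labels ties mice with the same number. Deviations of same-numbered libraries correlated at 0.088, -0.065 and -0.26, and those of differently numbered libraries at -0.237 to 0.287. Same-numbered libraries were thus not seen to be more alike, but so few values cannot exclude a pairing. With the number as a block, 26 genes were called, all among the 37. Irak4 changed sign with limma-voom (0.04) and without MRL-IRAK4-KD replicate 4 (0.01), with a range of -0.21 to 0.01 over libraries left out, and no other gene refitted under these settings changed sign (Nnt, Nr1d1, Entpd4b, Ifit1, Ifit3b, Ccl21a and Cxcl14 were not refitted). Calls of Wdfy1, Gabra2 and Dbp were lost when the 7 libraries were fitted alone and with the block, and Wdfy1 and Gabra2 also without any 1 of the C57BL/6 replicates 1, 2 and 3, and Dbp without replicate 2 or 3. The causes were not tested. Genes at low counts, such as the Ccl21 copies in MRL-IRAK4-KD, limit the precision of fold changes.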
